A study of Mus musculus with 8 samples.

Results

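The miRNAs described here are 7 mature miRNAs named for their abundance in white blood cells: mmu-miR-142a-3p and mmu-miR-142a-5p, mmu-miR-223-3p and mmu-miR-223-5p, mmu-miR-150-5p, and mmu-miR-342-3p and mmu-miR-342-5p, written below without the prefix for mouse. They were taken by name from 1881 mouse miRNAs on the array. No measured value enters that rule, but the members were chosen with earlier results of these data known. Of the 7, 3 were bright enough to be tested among 470 miRNAs: miR-142a-3p, miR-223-3p and miR-342-3p. The samples were exosomes, small membrane vesicles released by cells, isolated from the amniotic fluid of pregnant mice. In the LPS group, mice received lipopolysaccharide (LPS), a bacterial cell wall product and trigger of inflammation. The injection went into the abdomen at 100 μg per kg of body weight, on pregnancy day 14, and preterm birth followed after about 48 h. In the cesarean group, amniotic fluid came from cesarean sections, and whether these mice received an injection is not given. Effects of LPS, of preterm birth and of cesarean section cannot be told apart between these groups. Each group had 4 samples, all labelled day 17 of pregnancy, a day that LPS on day 14 and birth about 48 h later do not add up to. Strain, maternal age and pooling of litters are not given, nor whether replicates came from separate animals, so a p-value here speaks for the spread between samples alone, which may be technical.

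A miRNA is a short RNA that a protein complex uses as a guide to messenger RNAs, pairing mainly through its seed (bases 2 to 8), which lowers the output of those messengers. One hairpin precursor can yield a mature miRNA from each arm, named 5p and 3p. The miR-142 hairpin is made throughout the blood cell lineages and in few other cells. miR-223 marks the myeloid lineage, is most abundant in neutrophils and in mice restrains their production and activity. miR-150 accumulates in mature B and T lymphocytes, where it targets the transcription factor Myb. miR-342 is carried in the gene Evl, which encodes an actin regulator, and is found in blood cells as well as in other tissues. Exosomes carry miRNAs of the cells that shed them, so these names are used for the cells they are best known from.

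Mature sequences of 6 of the 7 miRNAs were matched in RefSeq (GRCm38.p6). Those of the 3 tested miRNAs are shown because all results rest on them, with the seed in capitals:
miR-142a-3p: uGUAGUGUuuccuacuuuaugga
miR-223-3p: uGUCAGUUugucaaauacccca
miR-342-3p: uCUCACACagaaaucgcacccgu
No seed was shared between 2 of the 6 miRNAs, nor with another mouse miRNA of that table. miR-142a-3p lies at chr11:87756903-87756925 on the plus strand of GRCm38.p6, inside the hairpin gene Mir142. The gene of the antisense hairpin, Mir142b, spans it. miR-223-3p lies at chrX:96242884-96242905 on the plus strand, inside Mir223, which the long noncoding RNA gene F630028O10Rik spans. miR-342-3p lies at chr12:108658680-108658702 on the plus strand, inside Mir342 and within the span of Evl.

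An array probe is a DNA strand complementary to its miRNA. It starts opposite the end away from the seed, and the probes of one miRNA differ in how far they reach toward the seed. Those of miR-142a-3p, miR-342-3p and miR-150-5p are shown because the values below were read from them, with the bases opposite the seed in capitals where the mature sequence was matched:
miR-142a-3p, longer probe: tccataaagtaggaaACACTACa
miR-142a-3p, shorter probe: tccataaagtaggaaACACTAC
miR-342-3p, longer probe: acgggtgcgatttctGT
miR-150-5p, longer probe: cactggtacaagggtt
The longer miR-142a-3p probe covers all 23 bases of the miRNA and the shorter one bases 2 to 23. The longer miR-342-3p probe covers bases 7 to 23. The 7 miRNAs had 17 probes on 210 spots of each array. Signals of different probes were not set against each other as amounts of RNA, because they also depend on probe length and base composition.

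The arrays were single-colour Agilent mouse miRNA arrays, and all signals are fluorescence intensities. Signals were scaled per array to the 75th percentile of the 618 probes detected on all arrays and raised to a floor of 13.5, the typical lowest signal above background. Levels are log2 values of these signals, with the floor at 3.75. Between 405 and 554 miRNAs were well above background on an array, 458 ± 47.0 on LPS arrays, against 480 ± 68.2 on cesarean arrays (SD, n = 4 each; exact permutation p = 0.657, two-sided). The log2 of the percentile used for scaling was 8.06 ± 0.42 on LPS arrays, against 8.20 ± 0.51 on cesarean arrays (exact permutation p = 0.743). All 8 arrays were on 1 slide, with the LPS arrays in row 1 and the cesarean arrays in row 2, so slide row and group cannot be told apart. In the test between the groups (limma, two-sided, Benjamini-Hochberg adjustment over all 470, threshold 0.05), 23 miRNAs passed, which is 4.89% of those tested. Of them, 12 were higher (2.55%) and 11 lower (2.34%) on LPS arrays, and the median log2 difference of all 470 was -0.06. Before adjustment, 24.9% of the 470 had a p under 0.05.

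miR-142a-3p was higher in exosomes of the LPS group, at 2.34 times its cesarean level after scaling between arrays. It was the one leukocyte miRNA of the 7 that passed the test. The call held in 8 of the 22 processing alternatives that gave it a value. miR-223-3p was bright on every array, with intermixed groups. miR-342-3p had a lower mean on LPS arrays that did not pass. miR-150-5p and the arms miR-142a-5p, miR-223-5p and miR-342-5p did not reach the level needed for a test. Less RNA per vesicle and fewer vesicles from a cell type cannot be told apart in such samples.

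**Figure D1:**
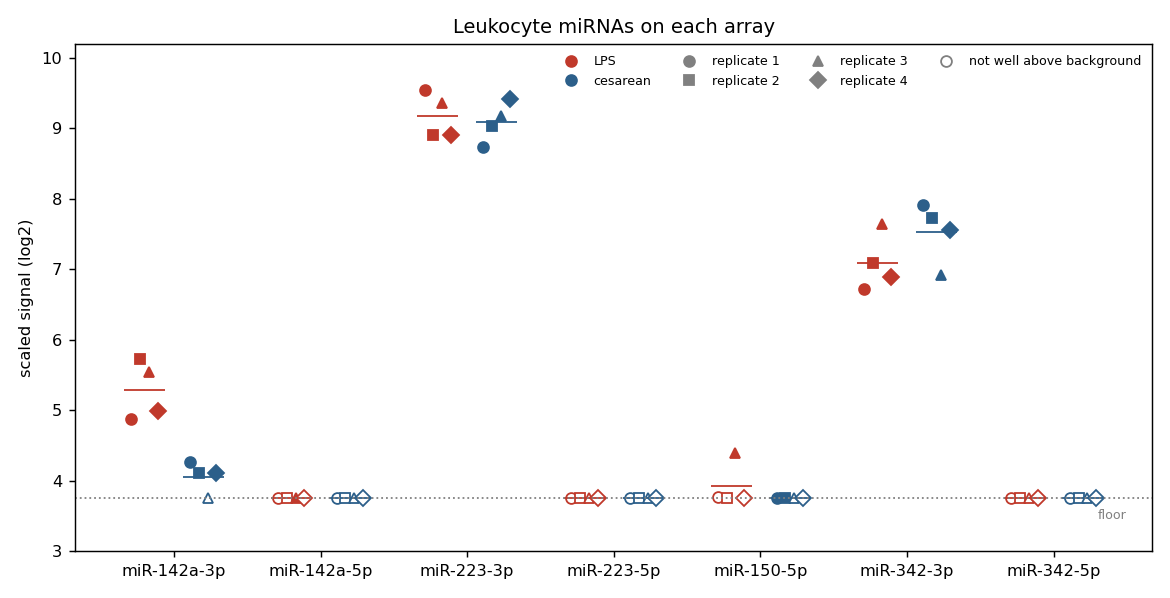
Scaled signal (log2) of the 7 leukocyte miRNAs on each of the 4 LPS and 4 cesarean arrays, with a line at each group mean and open symbols where the miRNA was not well above background. The LPS arrays lie above the cesarean arrays for miR-142a-3p, the groups overlap for miR-223-3p and miR-342-3p, and the other 4 miRNAs sit at or near the floor of 3.75. Heights of different miRNAs are not comparable as amounts.

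The level of miR-142a-3p was 4.88, 5.73, 5.54 and 4.98 on LPS arrays 1 to 4 and 4.26, 4.10, 3.75 and 4.11 on cesarean arrays 1 to 4 (log2 scaled signal). All 4 LPS arrays were above all 4 cesarean arrays, with the smallest gap between LPS 1 and cesarean 1. It was well above background on 4 of 4 LPS arrays and on 3 of 4 cesarean arrays, and the value of cesarean 3 is the floor. The mean was 5.28 ± 0.42 on LPS arrays, against 4.06 ± 0.21 on cesarean arrays (SD, n = 4 each). The log2 difference was 1.23 ± 0.26 (SE), or 2.34-fold with a 95% interval from 1.56 to 3.50, and the limma adjusted p was 0.0325. By size it was number 23 of the 470 differences, counted from the most raised. The groups did not overlap for 17% of the 470 tested miRNAs, so lack of overlap alone did not set miR-142a-3p apart.

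The miR-142a-3p signal was low, and the scaling entered the comparison. Before the floor, the scaled signals were 29.4, 52.9, 46.6 and 31.6 on the LPS arrays, against 19.1, 17.2, 8.89 and 17.3 on the cesarean arrays. Without scaling they were 23.9, 48.6, 67.7 and 23.8 on the LPS arrays, against 30.6, 21.4, 6.78 and 13.9 on the cesarean arrays. The unscaled groups overlapped, since cesarean 1, the array with the highest overall signal, was above LPS 1 and LPS 4. Unscaled signals did not overlap between the groups for 4.68% of the 470. The unscaled log2 difference was 1.04, in the same direction (limma adjusted p = 0.400). In the authors' deposited table, the log2 values of miR-142a-3p were 4.51, 4.90, 4.97 and 4.23 for LPS and 3.33, 3.54, 2.74 and 3.45 for cesarean, again with all LPS values on top.

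**Figure D2:**
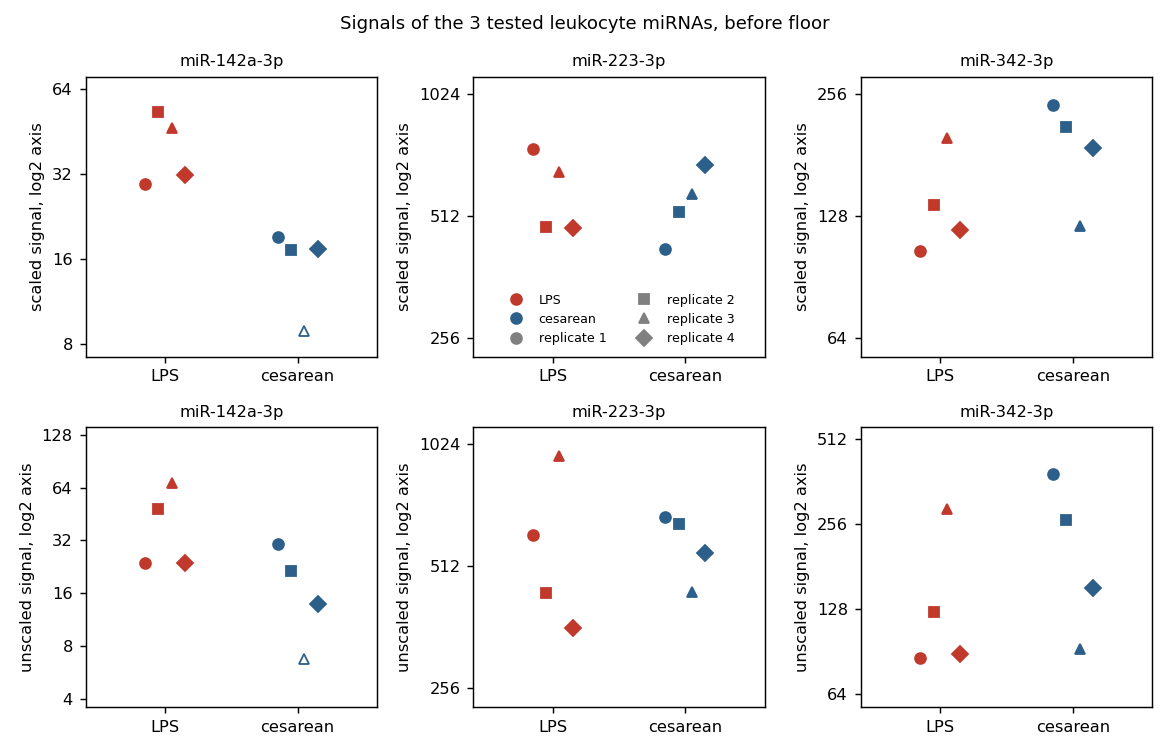
Signal of the brightest probe of miR-142a-3p, miR-223-3p and miR-342-3p on the LPS and cesarean arrays, after scaling (top row) and before scaling (bottom row), on log2 axes with no floor. The open triangle is cesarean 3, where miR-142a-3p was not well above background. The miR-142a-3p groups separate after scaling and overlap before it, while the groups overlap in both rows for miR-223-3p and miR-342-3p.

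The shorter miR-142a-3p probe was dimmer and also had all LPS arrays above all cesarean arrays. Its scaled signals lay between 14.4 and 22.6 on LPS arrays and between 4.29 and 8.43 on cesarean arrays, without overlap. It was well above background on 2 of 4 LPS arrays and on 0 of 4 cesarean arrays, so no fold is given for it. On the 2 arrays where both probes were measured, the longer one was between 2.28 and 2.34 times as bright as the shorter one. Spots of the longer probe differed by a coefficient of variation of 8.39% to 25.2% on the 7 arrays where it was measured. The antisense miRNA of the same locus, miR-142b, was not well above background on any spot of its 2 probes.

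The call for miR-142a-3p had little margin. Leaving out any of LPS 2, LPS 3 or the 4 cesarean arrays ended it (limma adjusted p from 0.0591 to 0.0972), while it held without LPS 1 (0.0140) and without LPS 4 (0.0314). It also ended with the slide column as a replicate block (adjusted p = 0.125), with normexp background correction (0.47, adjusted p = 0.217) and with a floor 2 times as high (0.53, adjusted p = 0.195), always with the LPS mean higher.

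miR-223-3p had levels of 9.55, 8.91, 9.36 and 8.90 on LPS arrays 1 to 4 and 8.73, 9.03, 9.18 and 9.42 on cesarean arrays 1 to 4. The highest value was on LPS 1 and the lowest on cesarean 1, with the other 6 intermixed. The mean was 9.18 ± 0.33 on LPS arrays, against 9.09 ± 0.29 on cesarean arrays (SD, n = 4 each). The log2 difference was 0.09 ± 0.25 (SE), with a 95% interval from -0.47 to 0.65 (limma adjusted p = 0.874). Under this scaling, the interval thus runs from 0.720-fold to 1.57-fold, and it speaks for the spread between these samples alone. The shorter probe gave 0.12, and the longer one was between 2.62 and 3.003 times as bright as the shorter on the 8 arrays. Unscaled, the signals were 610, 440, 955 and 361 on LPS arrays and 679, 652, 444 and 551 on cesarean arrays, again intermixed. The sign of so small a difference was not fixed, as it was -0.057 without scaling, -0.033 without LPS 1 and -0.030 without cesarean 1.

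miR-342-3p had levels of 6.72, 7.09, 7.64 and 6.89 on LPS arrays 1 to 4 and 7.91, 7.73, 6.92 and 7.56 on cesarean arrays 1 to 4. Of the LPS arrays, 3 lay below 3 of the cesarean arrays, while LPS 3 and cesarean 3 sat among the other group. The mean was 7.08 ± 0.40 on LPS arrays, against 7.53 ± 0.43 on cesarean arrays (SD, n = 4 each). The log2 difference was -0.45 ± 0.30 (SE), with a 95% interval from -1.11 to 0.21, and did not pass (limma adjusted p = 0.369). Both probes gave -0.45, and the longer one was between 1.26 and 1.35 times as bright as the shorter. The unscaled signals were 85.6, 125, 290 and 89.1 on LPS arrays and 385, 265, 92.1 and 152 on cesarean arrays. They overlapped, with cesarean 1 highest and LPS 1 lowest.

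miR-150-5p, the lymphocyte miRNA, was well above background on LPS 3, cesarean 1 and cesarean 2, which fell short of the 3 arrays of 1 group required for a test. Its longer probe gave scaled signals from 7.49 to 20.9 on LPS arrays and from 5.33 to 11.7 on cesarean arrays. The shorter probe was not well above background on any array. In the authors' deposited table its log2 values were 3.20, 2.66, 3.56 and 2.38 for LPS and 2.72, 2.89, 2.36 and 2.89 for cesarean, with the groups intermixed.

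miR-142a-5p, the other arm of the miR-142 hairpin, was well above background on LPS 3 alone, the LPS array with the highest overall signal. Both of its probes were dim, and the longer one gave scaled signals from 5.78 to 13.4 on LPS arrays and from 1.37 to 5.77 on cesarean arrays. No fold is given, because the mean LPS signal was below the lowest signal well above background on the cesarean arrays. The authors' deposited log2 values were 3.12, 2.94, 3.70 and 2.40 for LPS and 2.46, 2.62, 2.19 and 2.36 for cesarean, and they overlapped through LPS 4. miR-223-5p and miR-342-5p were not well above background on any of the 8 arrays.

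The levels of 2 miRNAs on the same array were then subtracted. This takes the array scaling out of the comparison except at the floor, where miR-142a-3p sat on cesarean 3. The result is a difference in probe signals, not in molecules, and what was compared is how it differed between the groups. For miR-142a-3p minus miR-342-3p it was -1.84, -1.37, -2.10 and -1.90 on LPS arrays 1 to 4 and -3.66, -3.63, -3.16 and -3.45 on cesarean arrays 1 to 4 (log2). The groups were well apart, and the gap was wider than the spread within either group. The means were -1.80 ± 0.31 on LPS arrays, against -3.47 ± 0.23 on cesarean arrays (SD, n = 4 each), a difference of 1.67 or 3.19-fold. The two-sided exact permutation p was 0.0286, the smallest that the 70 allocations of 8 arrays can give, and 0.0857 after adjustment over the 3 pairs compared. The difference between the groups was 0.97 with a floor 2 times as high, and 0.78 with normexp background correction, where the groups overlapped. Without the floor on cesarean 3, its difference was -3.76, farther from the LPS arrays.

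For miR-142a-3p minus miR-223-3p the differences were -4.67, -3.18, -3.82 and -3.92 on LPS arrays 1 to 4 and -4.47, -4.93, -5.43 and -5.31 on cesarean arrays 1 to 4. LPS 1 lay below cesarean 1, and otherwise the LPS arrays were higher. The group means differed by 1.14 (exact permutation p = 0.0571, adjusted over 3 pairs 0.0857), and by 0.39 with normexp and 0.44 with a floor 2 times as high. For miR-223-3p minus miR-342-3p they were 2.83, 1.82, 1.72 and 2.02 on LPS arrays 1 to 4 and 0.82, 1.30, 2.27 and 1.86 on cesarean arrays 1 to 4. These overlapped, with group means 0.54 apart (exact permutation p = 0.286, the same after adjustment). None of the 3 pairs passed after adjustment. A pair that alone reaches the smallest exact permutation p, 0.0286, stands at 0.0857 after adjustment and cannot pass. It can pass only where another pair reaches that p too, so passing or not does not measure the strength of a single pair. Without LPS 1, both pairs with miR-142a-3p did, at 1.39 against miR-223-3p and 1.68 against miR-342-3p (exact permutation, adjusted p = 0.0429 each).

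**Figure D3:**
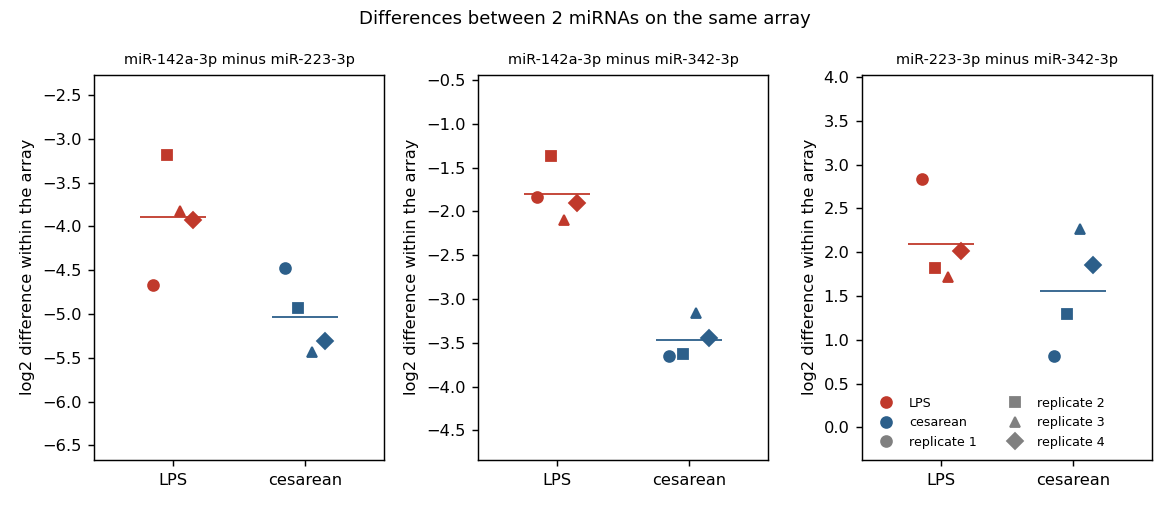
Difference in log2 signal between 2 leukocyte miRNAs on the same array, for each of the 3 pairs, on the 4 LPS and 4 cesarean arrays, with lines at the group means. The LPS arrays lie above the cesarean arrays for miR-142a-3p minus miR-342-3p (-1.80 against -3.47), and the groups overlap for the other 2 pairs.

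As a background, the same within-array difference was taken for every pair of tested miRNAs. It did not overlap between the groups for 16.9% of the 110215 pairs. Taken from miR-342-3p it separated the groups for 17.1% of the other 469 miRNAs, and from miR-223-3p for 10.7%. Taken from miR-142a-3p it separated the groups for 54.2%. Separation from miR-342-3p was therefore not particular to miR-142a-3p.

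Other miRNAs enriched in leukocytes did not move one way. Of 9 listed, 6 were tested, of which 4 were higher and 2 lower on LPS arrays. Their median log2 difference was 0.56, against -0.06 for all 470. Over all 470, 214 were higher. Of the 6, 1 passed higher and 1 lower, beside 2.55% and 2.34% of all 470. miR-155-5p, which macrophages and lymphocytes make when activated, ranged from 6.45 to 7.23 on LPS arrays, against 5.56 to 5.95 on cesarean arrays. It did not overlap between the groups and was higher on LPS arrays by 1.09 ± 0.24 (log2, SE; limma adjusted p = 0.0329). miR-181b-5p, abundant in developing lymphocytes but also in other tissues, was 5.08, 4.80, 5.62 and 4.88 on LPS arrays and 7.07, 6.76, 6.41 and 6.67 on cesarean arrays. It was lower on LPS arrays by 1.63 (log2; SE 0.26, limma adjusted p = 0.0107), with every LPS array below every cesarean array.

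The remaining tested members of that list did not pass. miR-181a-5p, of the same family as miR-181b-5p, differed by -0.96 (limma adjusted p = 0.0565). miR-146a-5p, which NF-κB induces and which dampens Toll-like receptor signalling, averaged 6.40 ± 0.33 on LPS arrays, against 5.61 ± 0.33 on cesarean arrays (SD, n = 4 each). It differed by 0.79, with no overlap between the groups (limma adjusted p = 0.0903). miR-150-3p, the minor arm of the miR-150 hairpin, differed by 1.11 ± 0.63 (SE; limma adjusted p = 0.293). Its level of 7.31 on LPS 4 was far above the 3.75 to 5.14 of the other LPS arrays. The other arm, miR-150-5p, was not well above background on LPS 4. miR-511-3p, from a hairpin inside a macrophage receptor gene, differed by 0.34 (limma adjusted p = 0.401). miR-155-3p, miR-146a-3p and miR-511-5p were not well above background on any array.

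**Figure D4:**
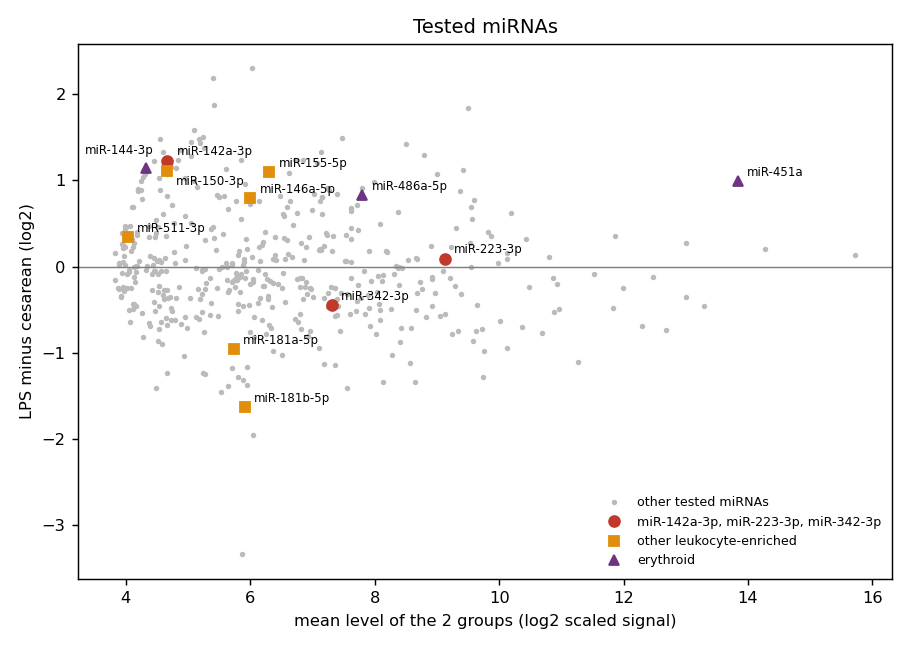
Log2 difference between LPS and cesarean arrays against the mean level of the 2 groups for all 470 tested miRNAs, with the leukocyte and erythroid miRNAs in colour. miR-142a-3p and miR-155-5p lie above 1, miR-181b-5p lies below -1, and miR-223-3p (0.09) and miR-342-3p (-0.45) lie within the bulk of all miRNAs. The miR-144-3p difference rests on the floor in the cesarean group.

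Markers of other cells were read in the same way, from lists that were also chosen with earlier results of these data known. Of 5 listed erythroid miRNAs, 3 were tested, all with higher means on LPS arrays, beside 214 of all 470. One of them, miR-144-3p, entered the test through its LPS arrays alone, so its higher mean came with the filter. The median log2 difference of the 3 was 0.99. The summed signal of the 4 listed ones on the array, untested miR-144-5p included, came mostly from the miR-451a probe. Its log2 ranged from 13.78 to 14.92 on LPS arrays and from 13.09 to 13.94 on cesarean arrays. miR-144-3p was well above background on 4 of 4 LPS arrays and 0 of 4 cesarean arrays, at least 2.13-fold higher, taken per cesarean array against the higher of the floor and its lowest signal well above background. Its limma adjusted p of 0.0172 rests on cesarean values that all sit at the floor and have no spread of their own. miR-451a, the major red cell miRNA, differed by 0.99 (adjusted p = 0.0812) and miR-486a-5p by 0.83 (adjusted p = 0.172). The 5 members of the epithelial miR-200 family were all higher, beside 214 of all 470, and 3 of them passed, beside 2.55% of all 470. Their summed signals had log2 values of 10.49 to 11.13 on LPS arrays and 9.51 to 9.94 on cesarean arrays. miR-126a-3p, from endothelium and platelets, differed by -0.09 (adjusted p = 0.895). The liver miRNA miR-122-5p ranged from 5.04 to 9.81 on LPS arrays and from 3.75 to 7.02 on cesarean arrays (adjusted p = 0.212), and none of the 4 striated muscle miRNAs passed. The part of these markers in the miR-142a-3p difference was not tested.

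For each tested leukocyte miRNA, the miRNAs with the most similar profile over the 8 arrays were found by the root-mean-square log2 difference between profiles centred on their means. These are descriptions, since all profiles share the same 8 arrays and scaling. Nearest to miR-142a-3p were let-7d-5p (0.08), miR-155-5p (0.21) and miR-29b-3p (0.23), among 338 miRNAs with a median of 0.85. The miR-142a-3p profile holds the floor value of cesarean 3. Over the 7 arrays where it was measured, let-7d-5p (0.085) and miR-155-5p (0.20) were again nearest, and let-7f-5p (0.21) took the place of miR-29b-3p (0.24). let-7d-5p averaged 9.44 ± 0.46 on LPS arrays, against 8.14 ± 0.19 on cesarean arrays (SD, n = 4 each). Nearest to miR-223-3p were miR-532-5p (0.15), miR-23a-3p (0.18) and miR-337-3p (0.19), against a median of 0.54 over 337 miRNAs. Nearest to miR-342-3p were miR-125a-5p (0.22), miR-409-3p (0.27) and miR-99a-5p (0.28), against a median of 0.59. No miRNA was among the nearest 3 of more than 1 leukocyte miRNA.

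**Figure D5:**
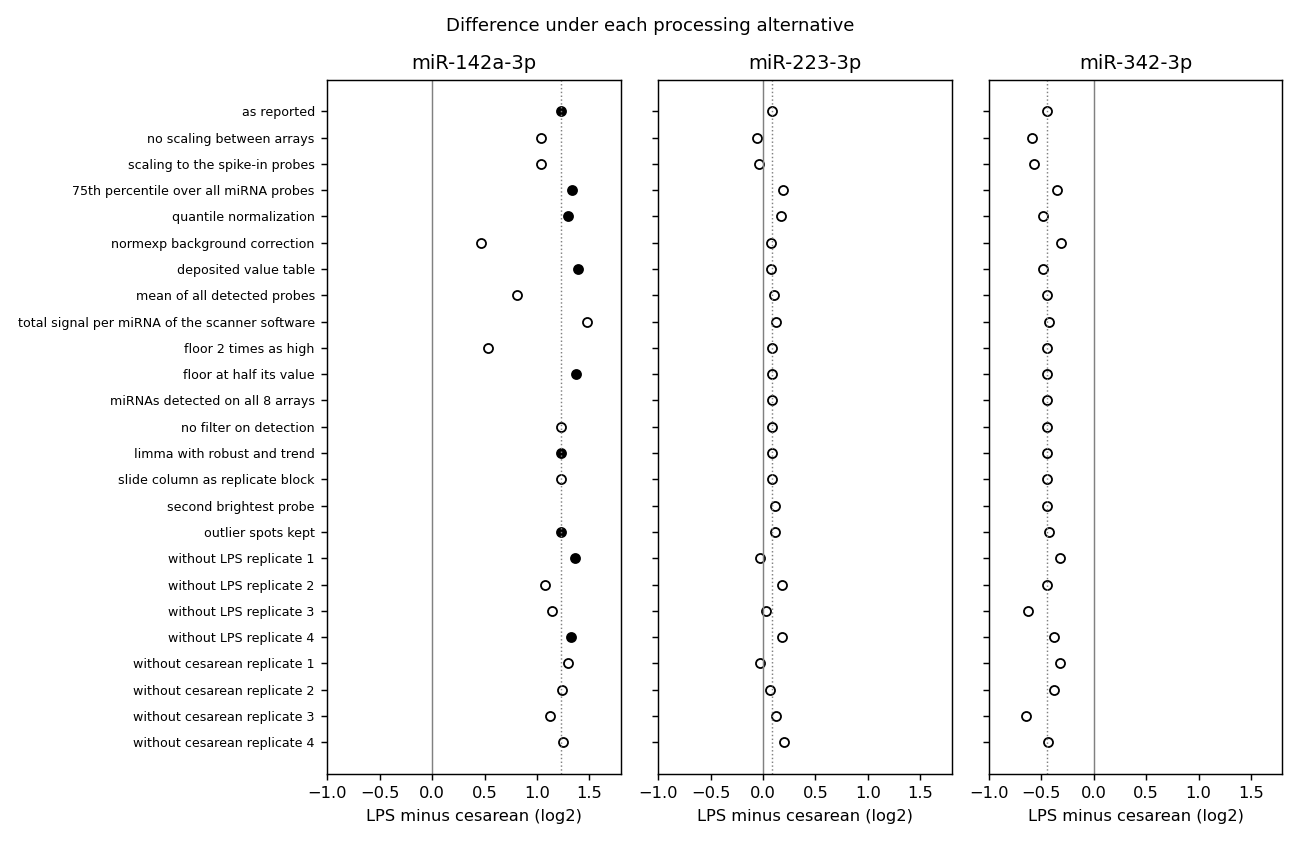
Log2 difference between LPS and cesarean arrays for miR-142a-3p, miR-223-3p and miR-342-3p as reported and under each processing alternative, filled where the limma adjusted p was under 0.05. The dotted line marks the reported value and the solid line 0. miR-142a-3p stayed above 0 in all 22 alternatives that gave it a value and passed in 8, while miR-223-3p stayed near 0 and miR-342-3p below 0.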

How the data were processed

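By their labels, the 8 samples form a group of 4 LPS and a group of 4 cesarean arrays. Per the file headers, spot intensity values were made with Agilent Feature Extraction 10.7.1.1 as background-subtracted signals without scaling between arrays, and the header names the build mm9. The submitters' processing notes name version 9.1. The labels describe the labelled material as cRNA from 0.5 μg of RNA, so how miRNAs were labelled is not settled. The authors' deposited table holds log2 values with scaling and floor not given in the sources used here, with column medians from 2.14 to 2.15. Each of its columns correlated best with its own array over 338 miRNAs (r from 0.958 to 0.964), and it served as an alternative. Per the file headers, 0 or 1 marks per spot give detection, saturation and outliers.

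Control spots (2164 of 58594) and outlier spots (2.99% to 3.48% of the miRNA spots) were left out, and no miRNA spot was saturated. A probe was detected if a share of at least 0.5 of its spots was well above background. The probe with the highest mean scaled signal, taken before the floor, stood for each miRNA. A miRNA counted as detected on an array if any of its probes was. Those detected on at least 3 of 4 arrays of either group were tested with limma 3.58.1 (lmFit and eBayes; R 4.3.3). The fit was also run on simulated data, with changes larger than that of miR-142a-3p and no floor. That run does not speak for calls of the miR-142a-3p size. Pairs of miRNAs were compared by exact permutation. Figures and sequences used Python 3.11.15, pandas 2.3.3, numpy 2.4.6 and matplotlib 3.10.9, and tables the R package data.table (1.17.8). No column of per-sample values was left unmapped. The number of arrays limits the precision.

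Named were the 7 leukocyte miRNAs, up to 4 tested miRNAs of each marker list with the smallest p, and the 3 miRNAs most like each tested one. The other listed miRNAs, the untested ones included, and miR-142b were added after their values were seen. The members and lists were chosen with earlier results of these data known. Probe positions in the files for miR-142a fall inside its GRCm38.p6 position although the header names mm9, so only RefSeq positions are printed. Mature sequences are from RefSeq, and that of miR-150-5p was not used here.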

Additional observations from a re-analysis of the deposited data

How the results depend on the processing

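Values are log2 differences, LPS minus cesarean, with limma adjusted p unless stated. miR-142a-3p was higher on LPS arrays in 22 of 22 alternatives and past the threshold in 8. It fell short without scaling (1.04, 0.400), with spike-in scaling (1.04, 0.428), normexp (0.47, 0.217), the mean of all detected probes (0.81, 0.0577), the scanner software's total signal (1.48, 0.0627), a floor 2 times as high (0.53, 0.195), no detection filter (1.23, 0.195) and the slide column as a replicate block (1.23, 0.125). Labels pair no samples, so that block rests on slide position alone. With 1 array left out, it ranged from 1.08 to 1.36. It was not among the miRNAs detected on all 8 arrays, nor tested by its second brightest probe, an alternative chosen after seeing the data, as was keeping outlier spots.

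miR-223-3p changed sign without scaling (-0.057), with spike-in scaling (-0.037), without LPS 1 (-0.033) and without cesarean 1 (-0.030), and ranged from -0.033 to 0.20 with 1 array left out. miR-342-3p was lower in all 24 alternatives, from -0.65 to -0.31, and passed limma in 0 (unadjusted p = 0.163 as reported). The pair contrasts with miR-142a-3p passed with quantile normalization (1.12 against miR-223-3p, 1.78 against miR-342-3p) and in the deposited table (1.31 and 1.87). They were smaller, and not past the threshold, with normexp (0.39 and 0.78), a floor 2 times as high (0.44 and 0.97) and the mean of all detected probes (0.71 and 1.26). With 1 array left out they ranged from 0.90 to 1.39 and from 1.53 to 1.78. Pairs that passed numbered 2 with quantile normalization and in the deposited table, and 0 to 2 with 1 array left out, against 0 as reported. A pair could pass this adjustment only together with another, so these counts do not measure the strength of a single pair.

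Of the 3 tested leukocyte miRNAs, 0 passed in the settings that ended the miR-142a-3p call or left it untested, and 0 to 1 with 1 array left out. Over all miRNAs, the count of 23 moved to 1 without scaling, with spike-in scaling and with the replicate block, 13 with the percentile over all probes, 36 with quantile normalization, 9 with normexp, 8 with total signal, 15 for miRNAs detected on all 8 arrays and 2 with no detection filter. It ranged from 3 to 79 with 1 array left out, the highest without LPS 1. Higher calls made up 52.2% as reported, 69.2% with the percentile over all probes, 66.7% with quantile normalization and with normexp, 63.3% in the deposited table and 75% with total signal. They made up 46.7% for miRNAs detected on all 8 arrays, 47.8% with the second brightest probe, 0% of the 1 call without scaling, with spike-in scaling and with the block, and 33.3% to 64% with 1 array left out. The median difference of all miRNAs moved from -0.06 to -0.20 without scaling. The most similar miRNAs were also sought over 7 arrays, a choice made after seeing the data. The causes of these changes were not tested.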
